A study of Mus musculus with 18 samples.

Results

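Retinal transcripts of 10 genes were analysed that carry, export, sense and store cholesterol and related lipids: Apoe, Apoc1, Lpl, Abca1, Abcg1, Nr1h3, Ch25h, Soat1, Plin2 and Tspo. They were taken by gene symbol and are 10 of the 23420 symbols in the count tables. RNA was sequenced from whole retinas of 9 BALB/cJ mice, an albino strain, labelled wild type and 8 to 10 weeks old, of both sexes. The 3 naïve mice had neither light nor treatment. In the vehicle group, 3 mice were exposed to 15000 lux of white light for 1 h and received DMSO, and in the TD139 group 3 mice had the same light and 15 mg/kg TD139, a small-molecule inhibitor of galectin-3, dissolved in DMSO. Both were injected into the peritoneum every day from the day before the light, with retinas collected 4 days later. Vehicle-treated mice thus differ from naïve mice by light, dark adaptation, pupil dilation, DMSO and injections, which cannot be told apart in that comparison, whereas TD139-treated and vehicle-treated mice differ by the inhibitor.

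Cells pass excess cholesterol to lipid-poor apolipoproteins. The membrane transporters ABCA1 and ABCG1 export it, apolipoprotein E carries it between cells, and the nuclear receptors LXRα and LXRβ, which oxysterols activate, switch on the genes of this path. Cholesterol that is not exported is esterified and kept in lipid droplets. In the retina Müller glia and microglia are known sources of apolipoprotein E, and phagocytes that take up debris of outer segments receive a large load of lipid. TSPO, an outer mitochondrial membrane protein that binds cholesterol, is widely used as a marker of reactive glia.

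Apoe lies on chromosome 7 from 19696109 to 19699188 on the minus strand (GRCm38, GENCODE M21). Apoc1 lies on the same strand from 19689481 to 19692660, so that 3448 bases separate both genes. Tspo is a gene of the plus strand of chromosome 15 (83563592 to 83574203) that overlaps Mcat, a gene on the opposite strand. Abca1 and Plin2 lie on chromosome 4, Abcg1 on chromosome 17, Lpl on chromosome 8, Ch25h on chromosome 19, Nr1h3 on chromosome 2 and Soat1 on chromosome 1. All 10 genes are protein coding.

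The RefSeq promoter table for GRCm38.p6, which gives 250 bases before and 50 bases after a transcript start, held promoters of 6 of the 10 genes (Apoe, Abca1, Plin2, Ch25h, Nr1h3 and Soat1). Those of Apoe (chr7:19699139-19699438, minus strand), Abca1 (chr4:53159846-53160145, minus strand) and Plin2 (chr4:86670010-86670309, minus strand) are shown, because Apoe and Plin2 moved together across the mice whereas Abca1, a classical LXR target, was less like Apoe, as given below. Plin2 was added after its values had been seen. Capitals mark exact matches, on either strand, to any of the 6 motifs named below.
Apoe: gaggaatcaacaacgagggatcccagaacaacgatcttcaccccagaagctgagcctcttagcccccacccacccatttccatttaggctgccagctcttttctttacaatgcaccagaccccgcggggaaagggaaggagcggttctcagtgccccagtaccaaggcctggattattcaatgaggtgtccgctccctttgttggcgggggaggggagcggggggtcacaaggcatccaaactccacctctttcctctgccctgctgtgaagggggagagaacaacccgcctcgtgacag
Abca1: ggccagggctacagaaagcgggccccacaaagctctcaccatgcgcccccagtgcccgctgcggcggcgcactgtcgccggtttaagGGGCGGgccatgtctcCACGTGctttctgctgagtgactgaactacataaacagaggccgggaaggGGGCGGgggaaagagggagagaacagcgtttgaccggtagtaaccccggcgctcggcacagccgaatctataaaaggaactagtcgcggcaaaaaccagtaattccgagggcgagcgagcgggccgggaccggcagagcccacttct
Plin2: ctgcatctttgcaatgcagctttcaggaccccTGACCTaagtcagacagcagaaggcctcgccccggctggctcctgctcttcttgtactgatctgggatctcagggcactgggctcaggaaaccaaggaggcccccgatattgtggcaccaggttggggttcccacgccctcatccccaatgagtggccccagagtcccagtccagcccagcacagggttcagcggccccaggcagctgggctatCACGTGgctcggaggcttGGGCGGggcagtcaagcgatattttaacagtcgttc

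The motifs searched were the direct repeat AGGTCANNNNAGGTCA that LXR binds together with its partner RXR, the single site AGGTCA, GAGGAAGT (PU.1), TGACTCA (AP-1), CACGTG (E-box) and GGGCGG (GC box). A match to the single site lies within each match to the repeat. Of the 32851 promoters in the table, 0.0152% held the repeat, 16.3% the single site, 3.2% the PU.1 motif, 5.2% the AP-1 motif, 7.15% the E-box and 35.7% the GC box. The Abca1 promoter held GC boxes that began 163 and 97 bases before the start and an E-box 147 bases before it. In the Plin2 promoter, the reverse complement of the single site began 218 bases before the start and an E-box 4 bases before it, and a GC box began 14 bases after it. None of the 6 motifs occurred in the Apoe promoter shown, nor in the other promoters of Apoe in the table. These are matches of letters in short windows, and the full LXR repeat was in none of the promoters of the 6 genes.

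Between 26171887 and 30201517 reads were counted on genes in each mouse, which places 3 counts at 0.101 to 0.119 CPM. CPM are counts scaled to library size, here after TMM normalization. All 10 genes passed the filter on low counts, which kept 15196 genes. Each comparison was tested with edgeR's quasi-likelihood test on all 3 groups, and a gene was called where its p-value, adjusted by Benjamini and Hochberg over all tested genes, was under 0.05. Marker genes put the samples in the retina: the summed level of 10 rod genes was 76193 to 86072 CPM in the naïve group, 43763 to 61365 with vehicle and 62670 to 78976 with TD139. Of these 10 genes 7 were called lower for vehicle against naïve, or 70% beside 2.89% of all tested genes. For TD139 against vehicle 6 were called higher, or 60% beside 17.2%. Vehicle-treated mouse 2 stood apart in 10 lens genes, with a sum of 7374 CPM against 2.16 to 318 in the other mice. TD139-treated mouse 1 stood apart from its group in markers of phagocytes, as given below. It also had the highest sums of its group for markers of Müller glia, pigment epithelium and endothelium, and the lowest rod sum.

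Light with vehicle went along with more RNA of lipid carriers, of the droplet coat protein Plin2 and of Tspo, whereas the genes for the transporters and the LXR receptor did not pass edgeR's test. Of the 10 genes, 5 rose in vehicle-treated against naïve mice (Apoe, Apoc1, Lpl, Plin2 and Tspo) and 0 fell, where 4.91% of all tested genes were called higher and 2.89% lower. At an unadjusted p under 0.05 edgeR gave 8 higher and 1 lower (Abcg1), where 4192 of the 15196 tested genes passed in either direction. With adjusted p-values DESeq2 called 8 higher and Abcg1 lower, and limma called 7 higher and 0 lower. Over all genes DESeq2 called 2418, of which 56.0% were higher, and limma 3420, of which 54.6% were higher. Over the 10 genes the median change was 1.11 on the log2 scale, beside −0.00175 over all tested genes, and 9 of the 10 values were above 0. For 7 of the 10 genes each mouse given vehicle exceeded each naïve mouse, where 16.7% of all tested genes did so, and for Abcg1 each was lower, where 16.6% were. Among the called genes, Plin2 and Apoc1 reached 2 on the log2 scale, which 1.24% of all tested genes did. None of the 5 genes was called when any one naïve mouse was left out, when 1, 217 and 91 genes of all were still called without naïve mouse 2, 3 and 1. The call thus rests on all 3 naïve mice, and without vehicle-treated mouse 1 or 3 it held for 2 genes (Lpl and Plin2) and 1 gene (Plin2). The log2 fold changes of the 5 genes stayed positive. Without any one naïve mouse they were 1.29 to 1.58 for Apoe, 2.40 to 3.14 for Apoc1 and 0.74 to 0.85 for Lpl. For Plin2 they were 2.01 to 2.27 and for Tspo 1.32 to 1.75.

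TD139 went along with lower levels of the same 5 genes. In TD139-treated against vehicle-treated mice Apoe, Apoc1, Lpl, Plin2 and Tspo fell, where 16.2% of all tested genes fell, and Abcg1 rose, where 17.2% rose. Over the 10 genes the median change was −0.88 on the log2 scale, beside −0.0164 over all tested genes. For 5 of the 10 genes all TD139-treated mice lay below all vehicle-treated mice, a pattern of 25.4% of the tested genes, and for Abcg1 all lay above, a pattern of 26.0%. Plin2 and Apoc1 were called at −2 or lower on the log2 scale, which 1.53% of all tested genes were. Without vehicle-treated mouse 3, TD139-treated mouse 2 or TD139-treated mouse 3, only Plin2 and Tspo of the 10 genes were still called. The vehicle-treated mice enter both comparisons, so a gene that is high in these 3 mice is higher in the first and lower in the second.

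Against naïve mice, 0 of the 10 genes were called in TD139-treated mice by edgeR, where 2.72% of all tested genes were called higher and 2.38% lower. At an unadjusted p under 0.05 edgeR gave 3 genes (Abca1, Lpl and Soat1). Of the 15196 tested genes 4492 passed this rule, so the share was near that of all genes. With adjusted p-values DESeq2 and limma each called 1, Abca1, and both called more of all tested genes than edgeR, as given at the end. All TD139-treated mice lay above all naïve mice for Abca1 and Lpl, which held for 15.3% of all tested genes. The intervals in the plot of log2 fold changes show what these data leave possible: for Apoe the 95% confidence interval of the log2 fold change ran from −0.70 to 0.90, and for Tspo from −0.78 to 0.69.

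**Figure D1:**
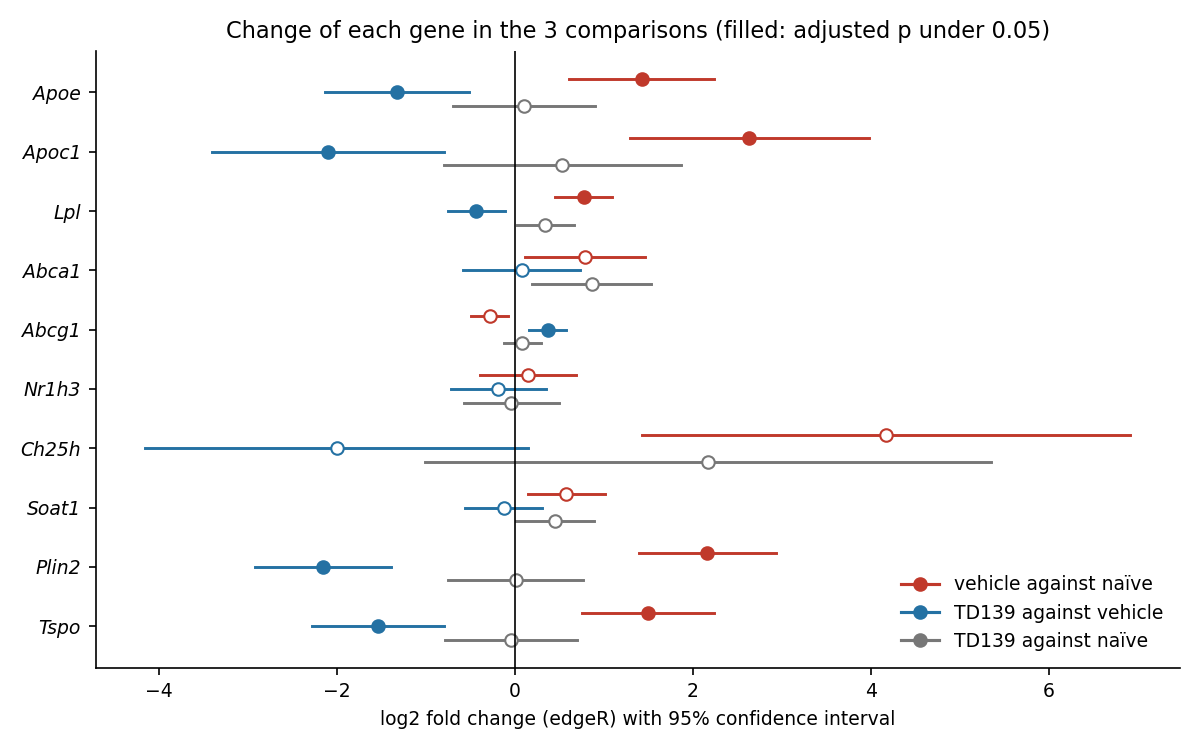
Log2 fold change of each gene with its 95% confidence interval in 3 comparisons, by edgeR on 3 mice per group, with filled points for an adjusted p under 0.05. Apoe, Apoc1, Lpl, Plin2 and Tspo are filled to the right of 0 for vehicle against naïve and to the left for TD139 against vehicle, and no point is filled for TD139 against naïve.

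Apoe, the main lipid carrier made by glia, was by far the most abundant of the 10 transcripts. It stood at 848, 723 and 568 CPM in naïve mice 1 to 3, at 1873, 1795 and 2073 in vehicle-treated mice and at 1278, 502 and 513 in TD139-treated mice. The vehicle-treated mice lay above both other groups without overlap. TD139-treated mouse 1 lay between the vehicle-treated mice and all other mice, whereas mice 2 and 3 were below each naïve mouse. Apoe rose 2.68-fold with light and vehicle (log2 fold change 1.42, SE 0.36, adjusted p = 0.0486, edgeR), and was 2.50-fold lower with TD139 than with vehicle (−1.32, SE 0.35, adjusted p = 0.0236). The rise was close to the threshold: it was called in 7 of 11 alternative settings, with adjusted p-values from 0.00187 to 0.0727, and in neither flow cell run alone. The fall with TD139 was called in 9 of 11 alternatives and in 6 of the 9 fits that left out a mouse. It was −0.79 (adjusted p = 0.0729) with the length and GC offset given below and −1.10 (adjusted p = 0.0813) without TD139-treated mouse 2. Without TD139-treated mouse 1 the difference from vehicle was −1.92, and against naïve mice it turned from 0.10 (adjusted p = 0.879) to −0.48 (adjusted p = 0.0654).

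Apoc1 encodes a small apolipoprotein on the same particles, and it followed its neighbour Apoe at a far lower level. Naïve mice had 2.34, 1.13 and 0.953 CPM, vehicle-treated mice 9.12, 7.10 and 11.3, and TD139-treated mice 4.41, 1.01 and 0.988. As for Apoe, the vehicle-treated mice were all highest, mouse 1 of the TD139 group came next, and its mice 2 and 3 were at the level of the lower naïve mice. The log2 fold change was 2.63 (SE 0.60, adjusted p = 0.0333) for vehicle against naïve and −2.10 (SE 0.58, adjusted p = 0.0231) for TD139 against vehicle. The second value was −3.19 without TD139-treated mouse 1, and it was not called without vehicle-treated mouse 3, TD139-treated mouse 2 or TD139-treated mouse 3 (adjusted p = 0.0723, 0.0855 and 0.0766) nor with the length and GC offset given below.

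Lpl encodes lipoprotein lipase, which releases fatty acids from triglyceride-rich particles. Its levels were 13, 11.7 and 11.4 CPM in naïve, 17.5, 24.3 and 20.1 in vehicle-treated and 16.1, 15.4 and 14.3 in TD139-treated mice. The groups formed 3 levels without overlap, with TD139-treated mice between both others. The change was 0.78 (SE 0.15, adjusted p = 0.0196) for vehicle against naïve and −0.43 (SE 0.14, adjusted p = 0.0397) for TD139 against vehicle, while TD139 against naïve gave 0.34 (SE 0.15) and missed the threshold (adjusted p = 0.147). The fall with TD139 is small, and its call was lost in 5 of the 9 fits that left out a mouse (naïve mouse 2, vehicle-treated mouse 2 or 3, TD139-treated mouse 2 or 3), with adjusted p-values up to 0.152 and a value of −0.30 without vehicle-treated mouse 2. It was also lost in 3 of 11 alternatives, with −0.32 (adjusted p = 0.179) in flow cell run 2 alone.

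**Figure D2:**
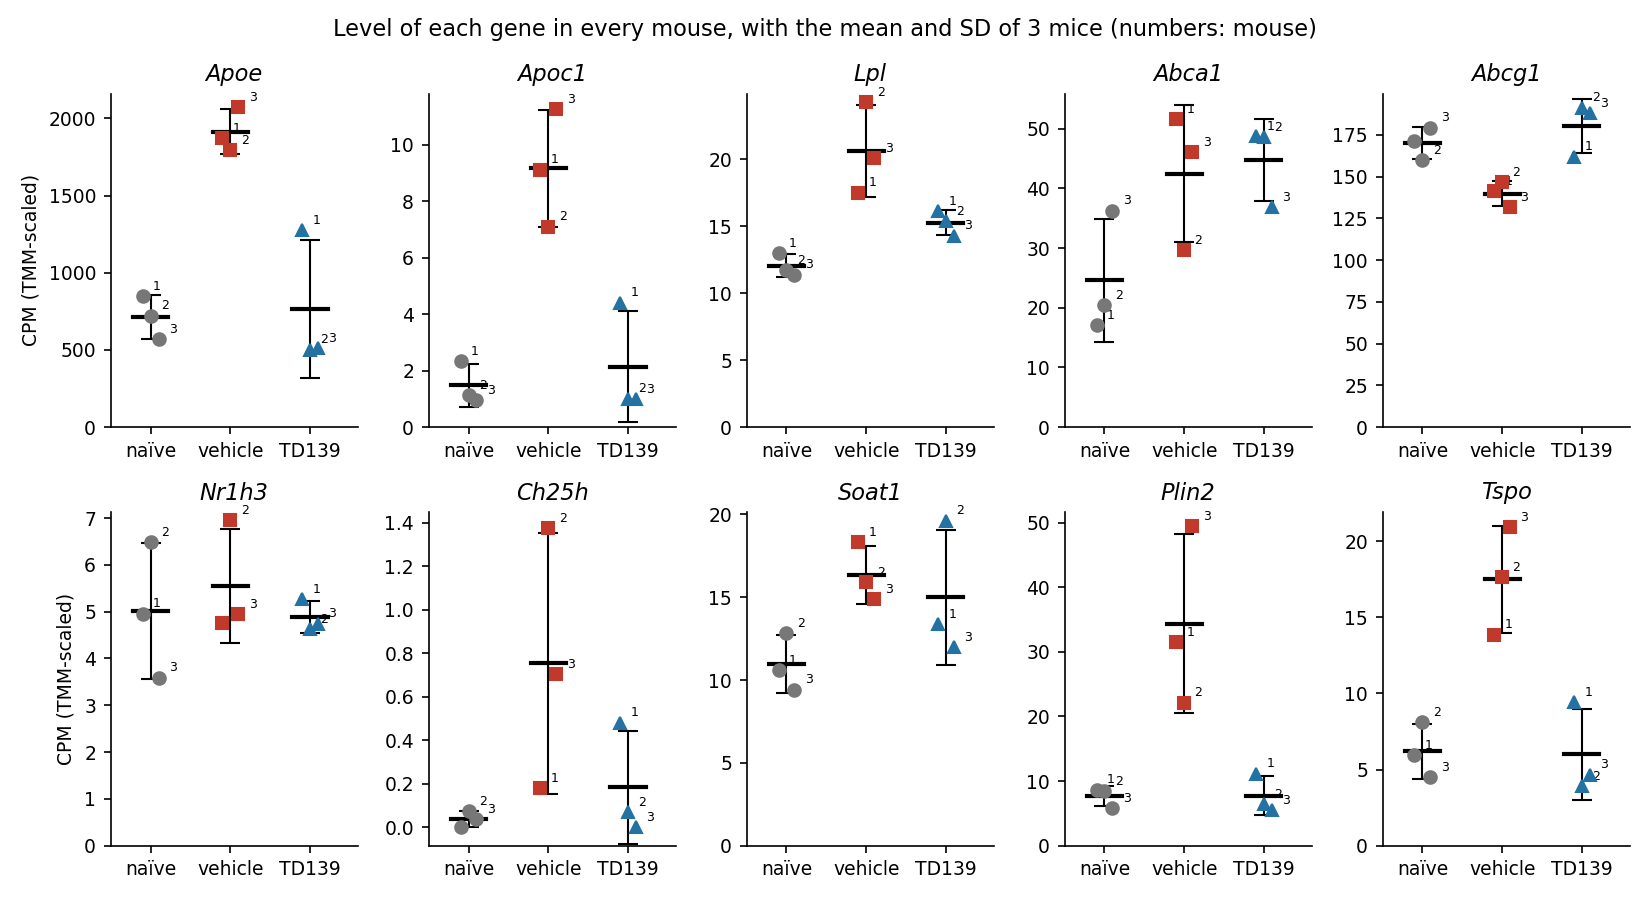
Level of each gene in CPM (TMM-scaled, linear axes) in naïve, vehicle-treated and TD139-treated mice, where points are mice with their numbers and bars the mean and SD of 3 mice. Apoe, Apoc1, Lpl, Plin2 and Tspo show the vehicle-treated mice on top and TD139-treated mouse 1 above mice 2 and 3, whereas Abca1, Abcg1, Ch25h, Nr1h3 and Soat1 do not show both.

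Of the exporters, Abca1, whose protein loads lipid onto apolipoproteins, stood at 17.1, 20.5 and 36.3 CPM in naïve mice, at 51.7, 29.7 and 46.1 in vehicle-treated mice and at 48.8, 48.6 and 36.9 in TD139-treated mice. Naïve mouse 3 was above vehicle-treated mouse 2, so those groups overlapped, while TD139-treated and vehicle-treated mice covered much the same range. The log2 fold change was 0.79 (SE 0.30, adjusted p = 0.126) against naïve for vehicle and 0.86 (SE 0.30, adjusted p = 0.0983) for TD139. For vehicle this is about the size of the change of Lpl, and it was called by DESeq2 (adjusted p = 0.0279), limma (adjusted p = 0.0168) and edgeR with the length and GC offset (adjusted p = 0.0409), but in none of the 9 fits that left out a mouse. Between TD139 and vehicle it was 0.07 with a 95% confidence interval from −0.59 to 0.74, which spans both directions.

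Abcg1 encodes the partner transporter that moves cholesterol to mature particles, and its level was lowest in the vehicle group. Naïve mice had 172, 160 and 179 CPM, vehicle-treated mice 141, 147 and 132, and TD139-treated mice 162, 191 and 188. All vehicle-treated mice were below all other mice. The change with light and vehicle was −0.28 (SE 0.09) and missed the threshold (adjusted p = 0.0805), although DESeq2 and the length and GC offset called it (adjusted p = 0.0409 and 0.0305). The rise with TD139 over vehicle was 0.37 (SE 0.09, adjusted p = 0.0143). This 1.29-fold rise was not called without vehicle-treated mouse 3, TD139-treated mouse 2 or TD139-treated mouse 3 (adjusted p = 0.0582, 0.0652 and 0.0595), nor with the offset, where it was 0.22 (adjusted p = 0.113).

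Of the sterol sensing genes, Nr1h3 encodes LXRα. It was measured at 4.96, 6.48 and 3.59 CPM in naïve, 4.75, 6.96 and 4.94 in vehicle-treated and 5.26, 4.63 and 4.74 in TD139-treated mice. The ranges of the 3 groups overlapped. Its log2 fold changes were 0.15, −0.19 and −0.04 (adjusted p = 0.723, 0.575 and 0.934), with a 95% confidence interval from −0.39 to 0.68 for vehicle against naïve.

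Ch25h encodes cholesterol 25-hydroxylase, which makes 25-hydroxycholesterol and is known as an interferon-induced gene of macrophages. It was near the limit of detection, with 0, 2 and 1 counts in naïve, 5, 39 and 21 in vehicle-treated and 13, 2 and 0 in TD139-treated mice. Vehicle-treated mouse 2 held 39 of the 65 counts of its group, and TD139-treated mouse 1 held 13 of 15. Per read, the 65 counts against 3 in naïve mice are a ratio of 20.1, with an exact 95% counting interval from 6.58 to 100.02, which covers counting error only. With edgeR the test over mice gave an adjusted p of 0.0640 for vehicle against naïve and 0.130 for TD139 against vehicle. The first was called by DESeq2, limma and edgeR with the length and GC offset (adjusted p = 0.0237, 0.0473 and 0.0398), and the second by limma (adjusted p = 0.0206). A noncoding gene, Gm26902, overlaps Ch25h on the opposite strand, and whether counting used strand is not given in the sources used here.

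Of the storage genes, Soat1 encodes the enzyme that esterifies cholesterol in the endoplasmic reticulum, and its levels were 10.6, 12.9 and 9.42 CPM in naïve, 18.3, 15.9 and 14.9 in vehicle-treated and 13.4, 19.6 and 12 in TD139-treated mice. Each mouse given vehicle exceeded each naïve mouse, but the log2 fold change of 0.58 (SE 0.20) missed the threshold (adjusted p = 0.0908), although DESeq2 and flow cell run 2 alone called it (adjusted p = 0.0471 and 0.0452). TD139-treated mouse 2 had the highest level of all 9 mice, and TD139 against vehicle gave −0.13 (adjusted p = 0.643).

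Plin2 encodes perilipin 2, the coat protein of lipid droplets. It was at 8.68, 8.48 and 5.86 CPM in naïve, 31.5, 22.1 and 49.4 in vehicle-treated and 11.2, 6.44 and 5.53 in TD139-treated mice. Each vehicle-treated mouse exceeded all mice of both other groups, mouse 3 most. TD139-treated mouse 2 lay within the naïve range and mouse 3 just below it. Plin2 rose 4.47-fold with light and vehicle (log2 fold change 2.16, SE 0.34, adjusted p = 0.0168) and was 4.45-fold lower with TD139 than with vehicle (−2.15, SE 0.34, adjusted p = 0.00568). TD139 against naïve gave 0.01 with a 95% confidence interval from −0.75 to 0.76. The difference between TD139 and vehicle was called in each of the 11 alternative settings and with each mouse left out.

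Tspo stood at 5.96, 8.10 and 4.51 CPM in naïve mice, at 13.9, 17.7 and 20.9 in vehicle-treated mice and at 9.42, 3.93 and 4.66 in TD139-treated mice. Again the vehicle-treated mice were the 3 highest, TD139-treated mouse 1 came next, and mice 2 and 3 were within or below the naïve range. Tspo rose 2.83-fold (log2 fold change 1.5, SE 0.33, adjusted p = 0.0290) with light and vehicle and was 2.91-fold lower with TD139 than with vehicle (−1.54, SE 0.33, adjusted p = 0.00945). TD139 against naïve gave −0.04 (adjusted p = 0.946). Like that of Plin2, the difference from vehicle was called in each of the 11 alternative settings and with each mouse left out. Mcat, the gene that overlaps Tspo on the other strand, gave 0.05 for vehicle against naïve and −0.35 (adjusted p = 0.0295) for TD139 against vehicle. Reads of both strands may be mixed in the overlap if strand was not used.

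Per length of transcript, Apoe, Abcg1 and Ch25h kept their places and the order of the others changed. Among naïve means Abca1 went from place 3 in CPM to place 8, Soat1 from 5 to 9 and Tspo from 7 to 3. In CPM per kilobase of transcript (RPKM), Apoe was first in every group (506 ± 99.7, 1359 ± 102 and 543 ± 316 in naïve, vehicle-treated and TD139-treated mice, SD, n = 3), Abcg1 second (29.2 ± 1.66, 24.0 ± 1.30 and 30.9 ± 2.76) and Tspo came next by its mean (7.39 ± 2.16, 20.9 ± 4.22 and 7.17 ± 3.56). Ch25h was last, at 0.0269, 0.544 and 0.133. In vehicle-treated mice the ranges of Abcg1, Tspo and Plin2 overlapped, as did those of Tspo, Plin2 and Apoc1 (means of 20.9, 18.2 and 17.2), so the order after Apoe is not resolved there. In TD139-treated mice the range of Tspo overlapped those of Plin2 and Apoc1. In naïve mice the ranges of Plin2, Lpl, Apoc1, Nr1h3 and Abca1 overlapped around means of 4.07, 2.93, 2.77, 2.56 and 2.40.

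Short transcripts had lower levels in TD139-treated mice across the whole transcriptome, and 4 of the 10 genes, Apoc1, Tspo, Ch25h and Apoe, have transcripts of 1.41 kb or less. Over 15068 genes, longer transcripts had higher log2 fold changes with TD139, with a Spearman correlation of 0.50 against vehicle and 0.61 against naïve, whereas vehicle against naïve gave −0.10, the opposite sign. It is a correlation across genes of the same mice, which are not independent replicates. The 1507 genes with the shortest transcripts, up to 1.27 kb, had a median of −0.46 for TD139 against vehicle, and only 0.982% of the genes have a shorter transcript than Apoc1 (0.532 kb), 3.43% than Tspo (0.837 kb) and 12.6% than Apoe (1.41 kb), with Ch25h at 1.39 kb. With an offset for length and GC content in each mouse, the change of Apoe with TD139 against vehicle was −0.79 (adjusted p = 0.0729), that of Apoc1 −1.59 (adjusted p = 0.0508) and that of Abcg1 0.22 (adjusted p = 0.113), none of them called. That of Ch25h was −1.60 (adjusted p = 0.226). Tspo remained called at −0.92 (adjusted p = 0.0319), Plin2 at −1.82 (adjusted p = 0.0104) and Lpl at −0.65 (adjusted p = 0.0172), and Soat1, with a transcript of 8.37 kb, was called at −0.62 (adjusted p = 0.0440). For vehicle against naïve the 5 genes remained called with this offset.

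**Figure D3:**
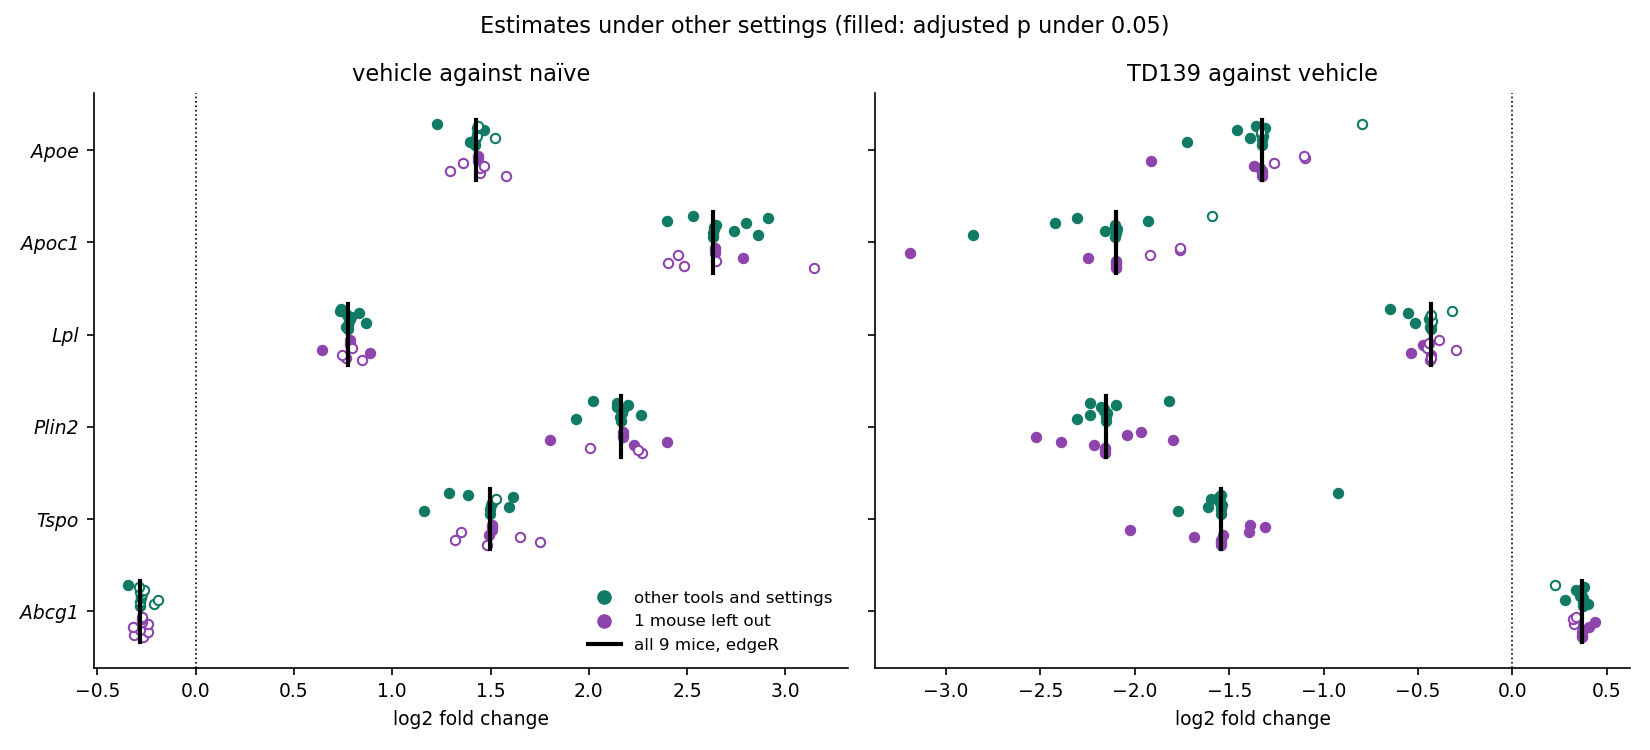
Log2 fold changes of 6 genes under 11 other tools and settings (green) and with each of the 9 mice left out (purple), with filled points for an adjusted p under 0.05 and a black bar for edgeR on all mice. Plin2 and Tspo are filled at each point for TD139 against vehicle, while open purple points are frequent for vehicle against naïve.

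Markers of microglia and macrophages were higher with vehicle and lower with TD139, as Apoe, Apoc1, Lpl, Plin2 and Tspo were. The 16 markers of microglia and macrophages summed to 68.3 to 73.0 CPM in naïve mice and 293 to 532 in the vehicle group, and to 49.8 and 60.5 in TD139-treated mice 3 and 2 but 178 in mouse 1. Of these markers 9 rose with light and vehicle, or 56.2% beside 4.91% of all tested genes, and DESeq2 and limma called 13 and 14 higher. Over all genes DESeq2 and limma called 2418 and 3420 there in either direction. With TD139 instead of vehicle 11 fell, or 68.8% beside 16.2%. None of the 16 was at 0 in every mouse. The 10 markers of blood monocytes and granulocytes summed to 1.58 to 3.01 CPM in the naïve group, 49.0 to 95.9 with vehicle and 1.81, 1.86 and, in mouse 1, 28.0 in TD139-treated mice. Lyz2, the lysozyme gene that macrophages and microglia also express, made up 90.1 to 98.4% of this sum in the vehicle group, with a log2 fold change of 6.04 (adjusted p = 0.0741) for vehicle against naïve. In naïve and TD139-treated mice 6 of these 10 genes were at 0 in at least 1 mouse, and 3 of the 10 were tested. By edgeR 0 of these 3 were called in any comparison (1 was higher for vehicle against naïve at an unadjusted p under 0.05), DESeq2 gave no p for Lyz2 and called 0 of the others, and limma called 1 higher for vehicle against naïve and 1 lower for TD139 against vehicle. TD139-treated mouse 1 was the highest of its group for 8 of the 10 lipid genes as well, all but Abcg1 and Soat1. In RNA of a whole tissue, more cells of a type and more RNA per cell cannot be told apart, and the part of these cells in the changes of the 10 genes was not tested.

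Müller glia and astrocyte markers (12 genes) spanned less, with sums of 4856 to 5491 CPM in the naïve group, 6481 to 6989 with vehicle and 5305 to 6251 with TD139. They were highest in the vehicle group too. Of these 12 markers 6 rose with light and vehicle (Slc1a3, Sox9, Aqp4, Dkk3, Vim and Aldh1l1), or 50% beside 4.91% of all tested genes, and 4 fell with TD139 against vehicle (Dkk3, Gfap, Vim and Aldh1l1), or 33.3% beside 16.2%. Gfap, a filament gene of reactive glia, had −2.96 (adjusted p = 0.0182) for TD139 against vehicle and 2.33 (adjusted p = 0.0766) for vehicle against naïve. Markers of the retinal pigment epithelium and choroid (12 genes) summed to 158 to 318, 260 to 570 and 152 to 247 CPM, and those of endothelium and pericytes (10 genes) to 264 to 337, 425 to 592 and 318 to 575 CPM. Without vehicle-treated mouse 2, the mouse with lens transcripts, 4 of the 10 genes were called for vehicle against naïve (Lpl, Plin2, Apoc1 and Tspo) and 5 for TD139 against vehicle (Apoe, Abcg1, Plin2, Apoc1 and Tspo). Without TD139-treated mouse 1, 6 were called for vehicle against naïve and 7 for TD139 against vehicle, with Ch25h added in both.

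**Figure D4:**
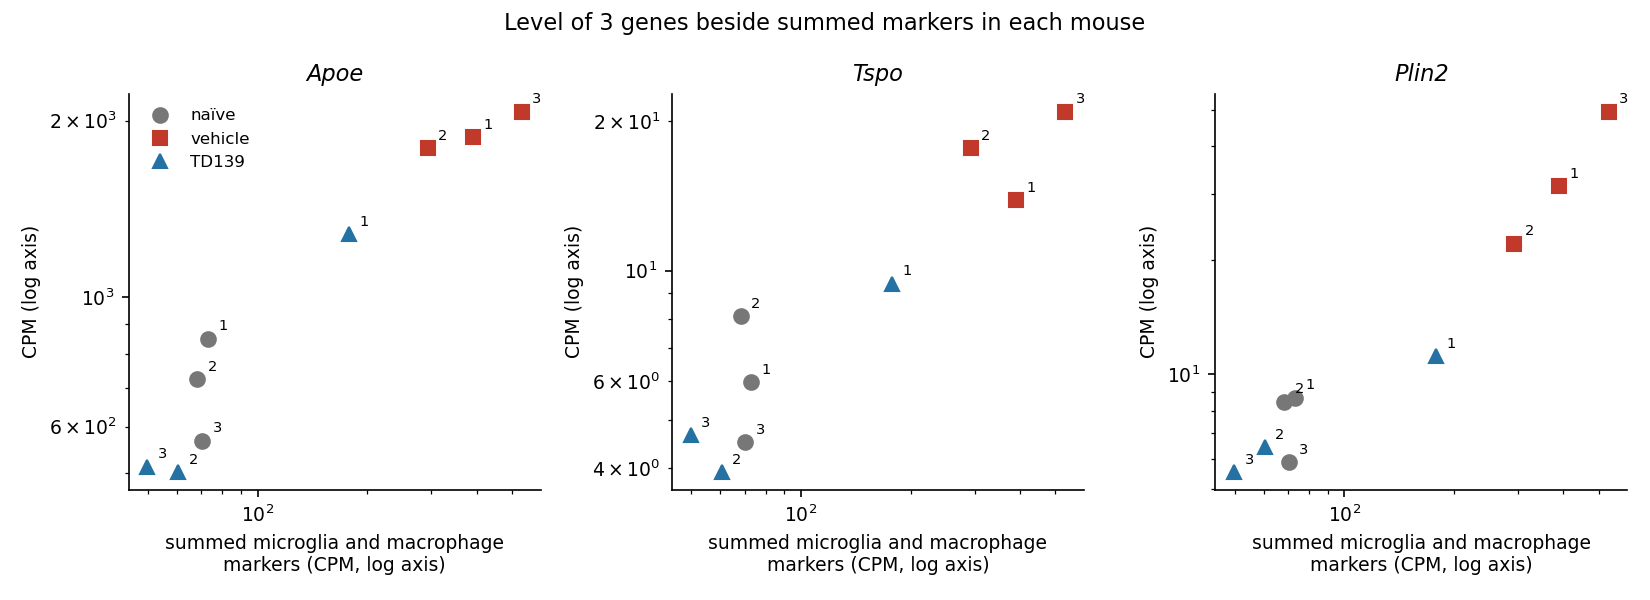
Level of Apoe, Tspo and Plin2 in CPM against the summed CPM of 16 microglia and macrophage markers in each of 9 mice, both on log axes, with mouse numbers beside the points. The vehicle-treated mice lie at 293 to 532 on the marker axis, TD139-treated mouse 1 at 178, and all other mice at 49.8 to 73.0.

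The genes whose log2 CPM over the 9 mice was most like that of Apoe, among 13093 genes that averaged 50 counts or more, were Rab7l1 (Pearson's r 0.993), Fcer1g (0.990), Pdgfa (0.989), Tspan15 (0.989) and Mamstr (0.988). Fcer1g encodes the signalling chain of Fc receptors, and its CPM was 0.843 to 1.34 in the naïve group, 8.80 to 18.5 with vehicle and 5.04, 0.696 and 0.593 with TD139. Of the lipid genes, Apoc1 followed in place 6 (0.987), Tspo in place 76 (0.964) and Plin2 in place 172 (0.949), whereas r was 0.24 for Abca1 and −0.95 for Abcg1. Lpl was in place 1584 (0.77), and r was 0.40 for Nr1h3 and 0.39 for Soat1. Most like Tspo were Tmem176b (0.989), the antiviral gene Ifitm3 (0.988), the immunoproteasome gene Psmb9 (0.987), Dap (0.985) and Arhgdib (0.984), and Abcg1 was among the least alike with −0.97. The mice share their groups, so these values also hold the split between vehicle-treated and other mice. On deviations from the group means the 5 genes most like Apoe were Rps6ka1, Mfng, Eef1a1, Cxcl16 and Ndn, of which none was among the former 5, and Dap and Tmem176b remained among the 5 most like Tspo. In these deviations TD139-treated mouse 1 weighs heavily: Apoe was at 1278 CPM there against 502 and 513 in mice 2 and 3. Tspo was at 9.42 CPM against 3.93 and 4.66. The correlations without this mouse were not tested. Of the lipid genes, Apoc1 had 0.966 (place 17), Tspo 0.851, Plin2 0.775 and Abcg1 −0.84 with Apoe on these deviations, and Abcg1 had −0.92 with Tspo. The values with Apoe were 0.31 for Lpl (place 4256), 0.30 for Nr1h3, −0.08 for Abca1 and −0.18 for Soat1.

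Other genes of the path were taken from 9 lists, with calls by edgeR where no tool is named. For TD139 against vehicle these calls are without the length and GC offset. Longer transcripts had higher log2 fold changes in that comparison (Spearman correlation 0.50). The part of transcript length in the rises and falls within a list was not tested. Their counts stand beside 4.91% of all tested genes called higher and 2.89% lower for vehicle against naïve, and 17.2% higher and 16.2% lower for TD139 against vehicle. These shares are those of edgeR. For vehicle against naïve DESeq2 and limma called 2418 and 3420 genes of all, and 4192 passed an unadjusted p under 0.05 with edgeR. Among other apolipoproteins and lipoprotein enzymes, 11 of 21 genes in the files were tested, 3 rose with light and vehicle (Clu, Apoc2 and Angptl4), 4 fell with TD139 against vehicle (Apod, Clu, Apoc2 and Angptl4), and the medians were 0.43 and −0.53. Clu, which encodes the chaperone apolipoprotein clusterin, had mean CPM of 980, 2638 and 805 in naïve, vehicle-treated and TD139-treated mice. Its log2 fold changes were 1.43 (adjusted p = 0.0286) and −1.71 (adjusted p = 0.00651). Apoc2, the cofactor of lipoprotein lipase, had 0 counts in each naïve mouse, 32, 12 and 56 in vehicle-treated mice and 10, 1 and 2 in TD139-treated mice. Taken against a floor of 3 counts in each naïve mouse, it was at least 10.2-fold higher in vehicle-treated mice. Angptl4, an inhibitor of the lipase, was at 0.949, 2.87 and 0.693 CPM and Apod at 1.57, 4.16 and 0.632 CPM. Pltp and Lmf1, named for their level, were not called, with 0.17 and −0.01 for vehicle against naïve and −0.43 and −0.17 for TD139 against vehicle.

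Of 13 tested genes for receptors that take up lipoproteins and their chaperone, 4 rose with light and vehicle (Lrp1, Cd36, Msr1 and Stab1), or 30.8% beside 4.91% of all tested genes. With TD139 against vehicle 4 fell (Lrpap1, Cd36, Msr1 and Stab1), or 30.8% beside 16.2%, and 1 rose (Vldlr), or 7.69% beside 17.2%, where DESeq2 called 2 and limma 4 higher. Of the scavenger receptor genes, Msr1 was at 0.248, 6.76 and 0.431 mean CPM, Cd36 at 1.08, 5.26 and 1.41, and Stab1 at 3.92, 18.2 and 5.45. These were log2 fold changes of 4.74, 2.28 and 2.21 after light and vehicle (adjusted p = 0.0255, 0.0127 and 0.0127) and −3.96, −1.90 and −1.74 with TD139 against vehicle (adjusted p = 0.0120, 0.00574 and 0.00651). Vldlr, with the highest mean CPM of the list over all 9 mice and a receptor for apolipoprotein E, had 288, 199 and 354 CPM, with −0.53 (adjusted p = 0.0800) and then 0.83 (adjusted p = 0.00782). In the vehicle group Lrp1 was higher than Vldlr, at 266 CPM. Lrp1 was called against naïve for vehicle (0.42, adjusted p = 0.0279) and for TD139 (0.49, adjusted p = 0.0406). The second call was lost with the replicate number as a block and with the length and GC offset, where 0 genes of all were called for TD139 against naïve. Its chaperone Lrpap1 gave −0.30 (adjusted p = 0.0210) for TD139 against vehicle.

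Of 12 tested ABC lipid transporters other than the 2 above, 1 fell with light and vehicle (Abca4), or 8.33% beside 2.89% of all tested genes, and 3 rose with TD139 against vehicle (Abca4, Abca5 and Abcg4), or 25% beside 17.2%. Abca4 is the flippase of retinoids in photoreceptor outer segments, and its mean CPM was 1421, 911 and 1491 (log2 fold changes −0.64, adjusted p = 0.0377, and 0.71, adjusted p = 0.0100). Abcg4, the close relative of Abcg1, was at 163, 121 and 189 CPM and gave −0.43 (adjusted p = 0.0605) and 0.64 (adjusted p = 0.00677). Abca5 was at 46.3, 46.4 and 66.7 CPM and was called for TD139 against vehicle (0.53, adjusted p = 0.0136) and against naïve (0.53, adjusted p = 0.0468), the latter lost with the block and with the offset. Abca2 and Abca8a were not called in any of the 3 comparisons.

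Of 18 tested partners and targets of LXR, 2 rose with light and vehicle, the lysophospholipid acyltransferase Lpcat3 (0.74, adjusted p = 0.0421) and the desaturase Scd2 (0.38, adjusted p = 0.0390), with a median of −0.02. That is 11.1% beside 4.91% of all tested genes. With TD139 against vehicle 5 rose, or 27.8% beside 17.2%, and 1 fell, or 5.56% beside 16.2%, the lipogenic regulator Srebf1 (−0.44, adjusted p = 0.0307), and the median was −0.11. Limma called 6 higher and 4 lower there, and DESeq2 5 and 2, while for vehicle against naïve DESeq2 called 3 higher and 2 lower and limma 3 and 1. Fasn, the fatty acid synthase gene, was at 220, 254 and 254 CPM and was not called.

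Among 19 genes of endosomal and intracellular sterol transport, 3 rose with light and vehicle: Npc2, the soluble cholesterol carrier of the lysosome (0.59, adjusted p = 0.0371), the acid lipase Lipa (0.89, adjusted p = 0.0171) and Lamp2 (0.72, adjusted p = 0.0249). That is 15.8% of the list beside 4.91% of all tested genes. Between TD139 and vehicle 5 rose, or 26.3% beside 17.2%, and 3 fell, or 15.8% beside 16.2%, so the share that fell was near that of all genes. Npc2 fell by 0.86 (adjusted p = 0.00568) while its membrane partner Npc1 rose by 0.32 (adjusted p = 0.0273), and Gramd1b rose by 1.16 (adjusted p = 0.0233) and Lamp1 fell by 0.31 (adjusted p = 0.0215). Lamp2 was also higher in TD139-treated than in naïve mice (0.60, adjusted p = 0.0487), a call close to the threshold that was lost with the block and with the offset.

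Of 8 tested enzymes and receptors of the oxysterol path, 0 were called for vehicle against naïve by edgeR (3 higher at an unadjusted p under 0.05, and 2 and 3 called higher by DESeq2 and limma). TD139 against vehicle gave 2 that fell, or 25% beside 16.2% of all tested genes, namely Cyp27a1, the sterol 27-hydroxylase, at 12.7, 18.9 and 10.8 CPM (−0.81, adjusted p = 0.00713), and Hsd3b7 at 11.7, 15.7 and 11.6 CPM (−0.43, adjusted p = 0.0474). Cyp46a1, the neuronal 24-hydroxylase, was at 28.7, 27.7 and 24.1 CPM and was not called.

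Among 23 tested genes of lipid droplets and ester turnover, 3 rose with light and vehicle. These were the coat gene Plin3 (1.5, adjusted p = 0.0250), the triglyceride lipase Pnpla2 (0.58, adjusted p = 0.0262) and the fatty acid carrier Fabp5 (1.27, adjusted p = 0.0206). DESeq2 called 7 higher and 1 lower there, and limma 7 and 2. With TD139 against vehicle 10 fell, or 43.5% beside 16.2% of all tested genes, and 3 rose, with a median of −0.43. Among those that fell were Plin3 (−1.05, adjusted p = 0.0255), Pnpla2 (−0.92, adjusted p = 0.00500), Fabp5 (−1.46, adjusted p = 0.00568), Mgll (−0.42, adjusted p = 0.0148) and Bscl2 (−0.43, adjusted p = 0.0150). Acsl3, with the highest CPM of the list, was at 299.7 to 440.9 CPM in the group means and was not called.

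For the partners of Tspo, 12 genes were tested. Dbi, which encodes diazepam-binding inhibitor, a protein that TSPO binds, was at 120, 215 and 77.5 CPM. It rose with light and vehicle (0.84, adjusted p = 0.0235) and fell with TD139 against vehicle (−1.47, adjusted p = 0.00500). By edgeR it was the only one of the list called for vehicle against naïve, while DESeq2 and limma each called 1 higher and 2 lower. With TD139 against vehicle the outer membrane channel Vdac1 (−0.34, adjusted p = 0.0160), the carrier Slc25a4 (−0.42, adjusted p = 0.0101) and the ferredoxin Fdx1 (−0.54, adjusted p = 0.0469) fell as well, and Bzrap1, a TSPO-associated protein, rose (0.40, adjusted p = 0.0144). The 4 that fell are 33.3% of the list beside 16.2% of all tested genes. Prkar1a was not called.

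Of 23 tested genes of cholesterol synthesis and its regulation, 2 fell with light and vehicle by edgeR, or 8.7% beside 2.89% of all tested genes, and the median of the list was −0.22. DESeq2 called 4 lower and 0 higher, and limma 8 lower and 1 higher. One of them, Tm7sf2, a sterol reductase, was at 29.5, 21.1 and 23.4 CPM (−0.48, adjusted p = 0.0398). With TD139 against vehicle 4 rose, or 17.4% beside 17.2% of all tested genes, and 2 fell, or 8.7% beside 16.2%, with a median of 0.10, so the share that rose was near that of all genes. Scap and Srebf2, which sense sterols and switch on this path, were not called in any of the 3 comparisons. For TD139 against naïve, edgeR called 3 of the 139 tested genes of all 9 lists, all higher (Lrp1, Abca5 and Lamp2), whereas DESeq2 called 13 higher and 8 lower and limma 25 higher and 31 lower. Both tools also called more of all tested genes than edgeR in this comparison, as given at the end, so the larger counts are not particular to these lists.

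**Figure D5:**
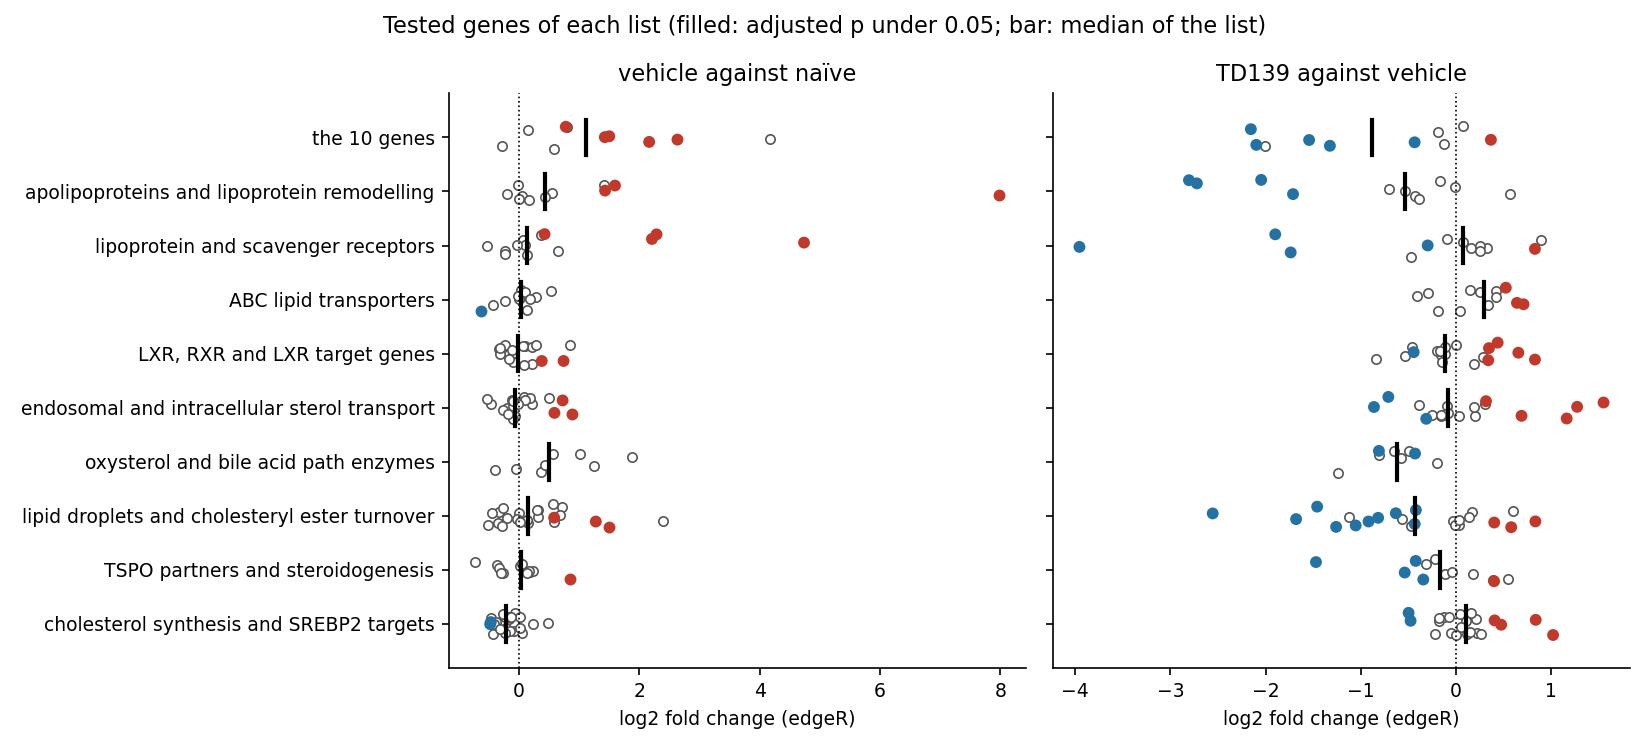
Log2 fold change by edgeR of each tested gene of the 10 genes and of 9 further lists, for vehicle against naïve and TD139 against vehicle, with filled points for an adjusted p under 0.05 and a bar at the median of the list. The medians of the 10 genes are 1.11 and −0.88, and the point at the far right is Apoc2, which was at 0 in all naïve mice, so that its fitted value has no fixed size.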

How the data were processed

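Whole-retina RNA of 9 mice was read on 2 flow cells (18 samples). Per sample, the authors deposited unscaled counts, the number of reads that BaseSpace RNA Express assigned to a gene. The labels name mm10, and the annotation and strand setting of the counting are not given in the sources used here. For each mouse, the replicate here, both runs were added up. Reads outside genes (19.1 to 19.9% in the naïve group, 16.5 to 19.4% with vehicle, 21.3 to 22.8% with TD139) were left out.

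The 3 groups were fitted with edgeR 4.0.16 in R 4.3.3 (filterByExpr, TMM, robust quasi-likelihood test, Benjamini-Hochberg adjustment over 15196 genes). Alternatives used DESeq2 1.42.0, limma 3.58.1 (voom with quality weights), other scalings, filters and samples, and an offset for length and GC content. The fits were tested on simulated data. Of the symbols, 98.4% were joined to GENCODE M21. The labels do not say whether mice were littermates or processed together, so p-values measure the spread between these mice. Intervals on counts cover counting error only.

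The 10 genes and all lists were chosen with earlier results of these data known. Named from each pathway list were the 3 tested genes with the highest mean CPM and every gene called in a comparison that called at most 5 of the list. Some genes that meet this rule are not reported here.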

Additional observations from a re-analysis of the deposited data

How the results depend on the processing

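Among the 10 genes, the calls of Plin2 and Tspo for TD139 against vehicle held in every alternative and with each mouse left out. The number of the 10 genes called for vehicle against naïve, 5 in the report, was 9 with DESeq2, 8 with the length and GC offset, and 0 to 6 with a mouse left out. For TD139 against vehicle it was 2 to 7 with a mouse left out against 6 with all mice, and 2 without vehicle mouse 3, TD139 mouse 2 or TD139 mouse 3. For TD139 against naïve, 0 became 1 with DESeq2 and with limma, and 0 to 1 with a mouse left out.

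Over all genes, 1185 were called for vehicle against naïve, 2418 with DESeq2, 3420 with limma, 3003 with the length and GC offset and 1 to 1982 with a mouse left out. The 5072 for TD139 against vehicle became 3275 with the offset and 1626 to 5926 with a mouse left out. The 775 for TD139 against naïve became 2632 with DESeq2, 5478 with limma, 1 with only the groups compared, 0 with the replicate block, 0 with the offset and 0 to 2679 with a mouse left out. Of the calls for vehicle against naïve 63.0% were higher, 77.6% with library size alone and 31.8% with the offset. For TD139 against vehicle these shares were 51.6%, 39.0% and 64.3%, and library size alone moved the median of all genes there to −0.10.

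The replicate numbers did not pair the mice: correlations of deviations between same-numbered mice were −0.26 to 0.28. With the replicate block Tspo for vehicle against naïve had an adjusted p of 0.0518 and Lpl for TD139 against vehicle 0.0567, and 4 and 5 genes were called in these comparisons.

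Directions turned only for changes that had not been called. With the offset, Nr1h3 turned to −0.038 for vehicle against naïve, 0.28 for TD139 against vehicle and 0.24 for TD139 against naïve, Abca1 to −0.39 for TD139 against vehicle, and Abcg1, Tspo and Soat1 to −0.12, 0.37 and −0.052 for TD139 against naïve. With limma, Nr1h3 gave −0.14 for vehicle against naïve, Abca1 −0.016 for TD139 against vehicle, and Apoe, Plin2 and Ch25h −0.33, −0.37 and −0.69 for TD139 against naïve. Library size alone gave −0.014 for Abca1 in TD139 against vehicle. For TD139 against naïve the block gave −0.032 for Plin2 and 0.0021 for Nr1h3, flow cell run 1 alone 0.14 for Nr1h3 and 0.060 for Tspo, and run 2 alone −0.092 for Plin2. With a mouse left out, Nr1h3 ranged from −0.048 to 0.39 for vehicle against naïve. For TD139 against vehicle Abca1 ranged from −0.13 to 0.24, Nr1h3 from −0.28 to 0.0098 and Soat1 from −0.37 to 0.014. For TD139 against naïve the ranges were −0.48 to 0.34 for Apoe, −0.35 to 0.21 for Plin2, −0.022 to 3.03 for Ch25h, −0.22 to 0.20 for Nr1h3, −0.55 to 1.04 for Apoc1 and −0.52 to 0.21 for Tspo. The cause was not tested. Ch25h averaged 9.22 counts per mouse and its counts varied widely within the vehicle and TD139 groups. It was left out by the filters on low counts with 1 CPM in 3 mice, with a single run and, except for TD139 against vehicle, with only the groups compared.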
